A study of Homo sapiens with 9 samples.

Results

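The guides described here target subunits of the Polycomb repressive complexes. They were taken by gene name: every guide whose target gene was EED, SUZ12, RING1, RNF2 or BMI1, or began with CBX, PCGF, EZH or PHC followed by a digit. The rule found 110 guides against 11 genes, of 11170 guides against 1117 genes in all, with 10 guides for each gene. The genes were EED and SUZ12 of PRC2, RING1 and RNF2, the catalytic subunits of PRC1, the PCGF subunits PCGF1, PCGF2, PCGF3, PCGF5 and PCGF6, the chromodomain protein CBX8 and the polyhomeotic protein PHC1. The rule also covered BMI1, EZH1, EZH2, the other CBX genes, PHC2 and PHC3, but none of the 11170 guides was listed under these names. Nothing can therefore be said here about guides against the PRC2 methyltransferases EZH1 and EZH2.

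The cells were U251, a human glioma line long kept in culture. In all 9 libraries they stably carried sgRNAs, the guide RNAs of a pooled CRISPR screen, and had been grown in DMEM with 10% FBS. The groups were 0, 200 and 1500 µM temozolomide, a DNA-alkylating drug used against glioma, for 72 hours, with 3 libraries each, numbered 1 to 3. The titles give these doses in µM and the treatment protocol has 200 and 1500 in nM, so the doses serve here as names of the groups. No source used here says which nuclease or vector was used, how long ago the cells were infected, or whether the numbers are separate cultures. P-values therefore reflect only library-to-library spread, part or all of which may be technical. What was counted is guide DNA: a lower count means a smaller share of that guide among the cells that remained, and no protein, transcript or histone mark of these genes was measured. Guide sequences are not part of the table used, so guides are named as there, by gene and number, and guides of 1 gene share their target.

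Polycomb proteins keep developmental genes silent through chromatin. PRC2, in which EED and SUZ12 hold and activate the methyltransferase EZH2, methylates histone H3, and PRC1, in which RING1 or RNF2 pairs with a PCGF protein, attaches ubiquitin to histone H2A. The PCGF partner sets the type of PRC1: the canonical complexes also hold a CBX protein, which binds methylated histone H3, and a polyhomeotic protein, and the variant complexes hold RYBP or YAF2 in their place. PRC2 activity has been studied in glioma as a regulator of cell identity and growth.

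The screen held guides against these genes at ordinary depth. Library totals lay between 1852340 and 2790563 counts. Of the 110 Polycomb guides, 103 (93.6%) reached 10 counts in 3 or more libraries and were tested, against 92.5% of all guides, and 74 (67.3%) were seen in all 9 libraries, against 67.6% of all guides. The 7 guides left untested were CBX8.3, CBX8.5, CBX8.6, EED.1, PCGF5.3, PCGF6.2 and SUZ12.9, whose highest count in any library was 29. SUZ12.9 was at 0 in all 9 libraries. A count of 0 allows up to 3 counts, or between 1.08 and 1.62 CPM over the libraries. CPM is the usual scaling of a count by its library's total, and the level of a gene below is the sum of the CPM of its 10 guides.

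Together the Polycomb guides held a smaller share of the counts in each treated library than in any untreated one. At 0 µM the share was 1.27%, 1.19% and 1.28% of all counts in replicates 1, 2 and 3. At 200 µM it was 1.02%, 1.13% and 1.04%, and at 1500 µM 0.959%, 0.932% and 1.08%. The treated and untreated libraries did not overlap, and both treated groups lay nearer to 0.985%, the share that 110 guides would hold if all guides were equally abundant. The means were 1.25% ± 0.046 at 0 µM, 1.06% ± 0.056 at 200 µM and 0.991% ± 0.080 at 1500 µM (SD, n = 3 each). Exact Clopper-Pearson 95% intervals, for counting error only, ran from 0.921% to 0.944% for the lowest library and from 1.26% to 1.29% for the highest. A single guide outside the set, UBE2A.7, held 6.07%, 18.6% and 4.97% of the counts at 1500 µM. With each library's most abundant guide taken out of its total, the mean Polycomb share was 1.26% at 0 µM, 1.08% at 200 µM and 1.10% at 1500 µM, and every treated library still lay below every untreated one. The share weighs abundant guides most, and the median guide of the set overlapped between doses. At 0 µM that median was 41.3, 64.1 and 57.5 CPM, against 35.6, 38.5 and 47.5 CPM for all guides. At 200 µM it was 43.5, 57.8 and 45.5 CPM, against 45.0, 43.4 and 49.5 CPM. At 1500 µM it was 49.1, 51.7 and 67.5 CPM, against 43.4, 37.3 and 50.2 CPM. Since the genes were chosen with results of these data known, no p is given for the set.

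More Polycomb guides were at 0 at 200 µM than at the other doses. In replicates 1, 2 and 3, 9, 10 and 7 of the 110 guides had no count in the untreated libraries. The 200 µM libraries lacked 19, 16 and 17 of them, and the 1500 µM libraries 11, 10 and 9. The 200 µM libraries did not overlap the others. Of all guides, 12.6%, 11.1% and 10.0% were at 0 in the untreated libraries, 15.2%, 12.7% and 14.0% at 200 µM and 13.8%, 11.5% and 10.6% at 1500 µM, so the whole pool moved in the same direction by smaller amounts. Totals at 200 µM, 1979391 to 2462866 counts, were not below the range of the untreated libraries.

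The 11 genes differed in level without the drug. RING1 had the highest summed level at 0 µM, 1756 ± 448 CPM (SD, n = 3), the place 33 among the 1117 genes, whose median was 873 CPM. PCGF2 at 1541 ± 869 CPM, EED at 1538 ± 772 CPM and PCGF3 at 1469 ± 486 CPM followed. PHC1 at 1112 ± 326 CPM, PCGF1 at 1042 ± 415 CPM, SUZ12 at 919 ± 795 CPM, CBX8 at 908 ± 548 CPM, PCGF5 at 881 ± 367 CPM and PCGF6 at 868 ± 140 CPM lay closer to the middle. RNF2 was lowest at 426 ± 97.8 CPM, place 952. Neighbours in this order did not differ by more than the larger of their SDs, except PCGF6 and RNF2. Without a library from before infection, these levels cannot be told apart from the make-up of the guide pool.

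Single guides were often abundant in 1 replicate number and not in the others. The leading guide of a Polycomb gene in a library held 33.0% of that gene's counts at the median over genes and libraries, with a range from 17.9% to 75.6%, and the median for all genes was 34.1%. In 20 of 33 cases, a gene within a replicate number, the same guide led at all 3 doses (60.6%, against 59.6% of all genes' cases). In only 3 of 33 cases, a gene within a dose, did the same guide lead in all 3 numbers (9.09%, against 8.27%). The guide levels of the tested Polycomb guides, as log2(CPM + 1), correlated at 0.731 to 0.914 between libraries of the same number and at 0.197 to 0.522 between libraries of the same dose, a description over 103 guides that share libraries and targets. Comparisons were therefore also made within each number, and with the number as a block.

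No Polycomb gene and no Polycomb guide passed edgeR's unblocked test in any comparison. With edgeR's quasi-likelihood test on gene sums, 0 of the 11 genes were called in 1500 against 0 µM, 200 against 0 µM, 1500 against 200 µM or the fit of the change per dose step, and the background was the same, 0 of 1117 genes (0.0%) in each. On single guides, 0 of the 103 were called in each, against 0 of 10337 (0.0%). Before adjustment, p was under 0.05 for 3, 0, 1 and 7 of all genes in these 4 comparisons, none of them a Polycomb gene, and for 21, 14, 21 and 35 of all guides, 1 of them a Polycomb guide, PCGF2.6 in the dose-step fit. These were at most 0.627% of genes and 0.339% of guides, fewer than a threshold of 0.05 would pass without any change. The unblocked test leaves the differences between replicate numbers in its error. A missing call there does not show that nothing changed. DESeq2 without a block called 1, 0, 1 and 2 of all genes, and no Polycomb gene among them.

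With the replicate number as a block, the SEs of the gene values were smaller and some Polycomb genes had unadjusted p under 0.05, all but 1 of them lower at the higher dose. In 1500 against 0 µM these were EED and PCGF6, 2 of 11, against 6.62% of all genes. In 200 against 0 µM they were CBX8, EED and SUZ12, 3 of 11, against 5.37%. In 1500 against 200 µM they were EED, lower, and PHC1, higher, 2 of 11, against 6.62%. In the dose-step fit they were EED and PCGF6, 2 of 11, against 9.94%. None kept an adjusted p under 0.05 in edgeR. Guides with unadjusted p under 0.05 in the blocked fits numbered 4 of 103 in 1500 against 0 µM (2.61% of all guides), 4 in 200 against 0 µM (2.23%), 2 in 1500 against 200 µM (1.95%) and 6 in the dose-step fit (3.77%). None of the 103 was called in these edgeR fits, where 0 of all 10337 guides were. No Polycomb guide had an adjusted p under 0.998 there, including those given below with an unadjusted p only.

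Counted by direction alone, most of the 11 genes lay below the middle of all genes in both comparisons with 0 µM. In the unblocked fit of 1500 against 0 µM, 9 of 11 had a log2 fold change below the median of all genes, with a median of -0.25 for the 11 and -0.03 for all. Without the untreated replicate 3 it was 6 of 11, with a median of -0.09, and with equal weight for each guide (limma) 7 of 11, with a median of -0.11. On single guides, 54 of 103 lay below the median of all guides, with medians of -0.16 and -0.08. In 200 against 0 µM it was 10 of 11, with medians of -0.30 and -0.03, and on single guides 68 of 103, with medians of -0.31 and -0.09. Without the untreated replicate 2 it was 55 of 103 guides, with a median of -0.07 for the 103. Without the 200 µM replicate 1 it was also 55, with a median of -0.09. Leaving out any other library gave 62 to 65 guides, and over all omissions 8 to 10 of 11 genes. These comparisons share the 0 µM libraries. In 1500 against 200 µM, which does not use them, it was 4 of 11, with medians of 0.07 and -0.01. That direction turned with 1 library. Without the 1500 µM replicate 2 it was 6 of 11, with a median of -0.05 for the 11, and without the 1500 µM replicate 1 it was 3 of 11, with a median of 0.24. The fold changes of the 11 genes ran from -0.54 (EED) to 0.26 (PCGF5) in 1500 against 0 µM and from -0.53 (CBX8) to 0.06 (PCGF5) in 200 against 0 µM.

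Compared within each replicate number, EED, PCGF6, PHC1 and RING1 were lower at 1500 than at 0 µM in all 3 pairs, 4 of 11 genes, against 23.5% of all genes, and no Polycomb gene was higher in all 3, against 6.0%. At 200 against 0 µM, CBX8, EED and RING1 were lower in all 3 pairs, 3 of 11, against 8.68%, and none was higher, against 19.9%. For no Polycomb gene did the 3 treated libraries lie wholly below the 3 untreated ones, against 2.06% of all genes at 1500 µM and 0.537% at 200 µM, or wholly above them, against 0.627% and 1.61%. The background of these counts moved with the scaling. In replicate 2 the median gene of the whole table was at a log2 ratio of -0.24 at 1500 against 0 µM, and in replicate 1 at 0.16 at 200 against 0 µM. With each pair's ratios taken relative to its median gene, EED, PCGF6 and RING1 were lower in all 3 pairs at 1500 µM, 3 of 11 against 11.6%, and PCGF5 was higher, 1 of 11 against 13.4%. At 200 µM CBX8, EED, RING1 and SUZ12 were then lower, 4 of 11 against 14.2%, and none was higher, against 15.0%. With TMM-scaled totals 5 of 11 were lower at 200 µM, against 30.9%, and none was higher, against 6.18%.

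Single guides were less one-sided than the gene sums, though at 200 µM more were lower than higher on each scale. At 1500 against 0 µM, 11 of the 103 tested Polycomb guides were lower in all 3 pairs (11.6% of all guides) and 7 were higher (12.2%). At 200 against 0 µM, 14 were lower (8.46%) and 7 were higher (15.5%). With TMM-scaled totals 21 were lower at 200 µM (13.8%) and 6 higher (10.1%). At 1500 µM 11 were then lower (12.6%) and 6 higher (12.1%). Relative to the median guide, the counts at 200 µM were 22 lower (12.7%) and 6 higher (12.3%), and those at 1500 µM 12 lower (12.9%) and 6 higher (13.1%). On that scale a guide at 0 in both libraries of a pair counts as lower where the pair's median is above 0. With such pairs counted in neither direction, a setting chosen after seeing the data, 18 were lower at 200 µM (11.2%) and 10 at 1500 µM (12.2%), and 6 were higher at each dose (12.3% and 12.5%). By library total, CBX8.4 and EED.8 were lower in all 3 pairs at both doses (2.71% of all guides). PCGF2.9, PHC1.3 and PHC1.8 were higher at both (4.04%). In replicate 2 CBX8.4 had 10 counts at both 0 and 1500 µM, and PHC1.3 had 5 at both 0 and 200 µM. These pairs differed only through the library totals. Groups that did not overlap were rare. PCGF1.6 was lower in each 1500 µM library than in any untreated one (1.05% of all guides) and PHC1.8 was higher (1.56%). At 200 µM SUZ12.3 was lower without overlap (0.532%), and PCGF3.10 and PHC1.8 were higher (1.7%).

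In PRC2, EED was lower at each higher dose within every replicate number. EED is the subunit that reads trimethylated histone H3 and stimulates the methyltransferase. Its summed level in replicates 1, 2 and 3 was 2140, 669 and 1806 CPM at 0 µM, 1908, 548 and 1374 CPM at 200 µM, and 1431, 351 and 1278 CPM at 1500 µM. Replicate 2 lay below the others at each dose and the 3 groups overlapped. The log2 ratios of 1500 to 0 µM were -0.58, -0.93 and -0.50, and relative to the median gene of each pair -0.61, -0.69 and -0.46. Those of 200 to 0 µM were -0.17, -0.29 and -0.39, or -0.33, -0.33 and -0.36 relative to the median gene. Both doses were below 0 µM in all 3 pairs for EED and RING1, 2 of 11, against 5.1% of all genes. EED and PCGF1 were lower at 1500 than at 200 µM in all 3 pairs, 2 of 11, against 32.8% of all genes. Relative to the median gene only EED was, 1 of 11, against 13.9%.

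In the unblocked edgeR fit EED stood at a log2 fold change of -0.54 ± 0.58 (SE) in 1500 against 0 µM, with an adjusted p of 1.00, and at -0.34 ± 0.57 in 200 against 0 µM. With the replicate number as a block the fold change was -0.57 ± 0.15 in 1500 against 0 µM, with an unadjusted p of 0.00193 and an adjusted p of 0.307. In 200 against 0 µM it was -0.34 ± 0.12, with an unadjusted p of 0.0237 and an adjusted p of 0.811. With the most abundant guide at 0 µM of every gene left out, EED.8 for EED, it was -0.16 ± 0.14, with an unadjusted p of 0.275. In 1500 against 0 µM the blocked value was then -0.61 ± 0.16, with an unadjusted p of 0.000795 and an adjusted p of 0.151. With EED.8 alone left out, the latter was -0.53 ± 0.16, with an unadjusted p of 0.00450 and an adjusted p of 0.428. The choice of fit decided whether EED was called across doses. Per dose step, with 0, 200 and 1500 µM coded as 0, 1 and 2, the unblocked value was -0.27 ± 0.29 with an adjusted p of 0.998, and the blocked value in edgeR was -0.28 ± 0.058 with an adjusted p of 0.0824. DESeq2 with the block gave -0.29 ± 0.061 with an adjusted p of 0.000564, and so called EED, the only Polycomb gene among the 15 of 1117 genes (1.34%) it called.

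That DESeq2 call was lost without either of 2 guides and without replicate 2, and the fold change itself shrank by over 1.5 times only without EED.6. Without EED.6 it was -0.19 ± 0.083 with an adjusted p of 0.359, and without EED.8 it was -0.27 ± 0.085 with an adjusted p of 0.0999, whereas without any of the other 8 guides the adjusted p stayed under 0.05. Without the 1500 µM library of replicate 2 it was -0.27 ± 0.073 with an adjusted p of 0.0587, and without all of replicate 2 it was -0.26 ± 0.075 with an adjusted p of 0.105. Without any other library or number the adjusted p stayed under 0.05. In the blocked edgeR fit the adjusted p per dose step passed 0.05 without EED.5 (0.0275), without EED.10 (0.0333) and without the 1500 µM library of replicate 3 (0.0476), and no other omission brought it under the threshold. In 1500 against 0 µM the blocked edgeR value passed only without replicate number 1, at an adjusted p of 0.0482.

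The guides of EED differed widely in abundance. EED.8 was the most abundant at 0 µM, at 1563, 216 and 326 CPM in replicates 1, 2 and 3, and stood at 1192, 149.5 and 147 CPM at 200 µM and at 1044, 90.0 and 251 CPM at 1500 µM. It was lower than in the untreated library of its number in all 6 treated libraries, as were 2.71% of all guides. In the untreated replicate 1 it held 73.0% of the EED counts. EED.6, which led in replicate 3, was at 152, 129 and 872 CPM at 0 µM, 189, 104 and 667 CPM at 200 µM and 42.3, 59.0 and 367 CPM at 1500 µM. All 3 values of EED.6 at 1500 µM were below the untreated value of their number, and at 200 µM only replicates 2 and 3 were lower. The blocked edgeR log2 fold change of EED.6 in 1500 against 0 µM was -1.45 ± 0.33, with an unadjusted p of 0.00297, the lowest of the Polycomb guides, and an adjusted p of 0.999. That of EED.8 was -0.79 ± 0.31 in 1500 against 0 µM and -0.88 ± 0.26 in 200 against 0 µM, with unadjusted p of 0.0378 and 0.0120.

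The other EED guides were mixed by pair, though most lay below 0 in the fit of 1500 against 0 µM. With the block, 8 of the 9 tested EED guides had a log2 fold change below 0, against 51.1% of all guides. Without the block 7 of 9 did, against 56.1%. In 200 against 0 µM 6 of 9 did in either fit, against 55.6% with the block and 57.5% without. EED.2 was at 77.7, 26.4 and 70.2 CPM at 0 µM, 114, 23.2 and 80.0 CPM at 200 µM and 41.6, 16.1 and 28.9 CPM at 1500 µM. EED.3 was at 35.6, 61.1 and 52.9 CPM at 0 µM, 105, 48.0 and 34.9 CPM at 200 µM and 25.1, 40.5 and 12.8 CPM at 1500 µM. Both were lower at 1500 µM in all 3 pairs, so 4 of the 9 tested EED guides (EED.2, EED.3, EED.6 and EED.8) met that count. EED.5 and EED.9 were lower in all 3 pairs at 200 µM and not at 1500 µM. EED.10 was higher at 1500 than at 0 µM in replicates 1 and 3, at 113 and 89.0 CPM against 57.2 and 62.1 CPM, and at 0 in replicate 2.

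SUZ12, the scaffold on which PRC2 assembles, did not follow EED in every number. Its summed level was 531, 1834 and 392 CPM at 0 µM, 542, 1534 and 203 CPM at 200 µM, and 498, 989 and 395 CPM at 1500 µM. Replicate 2 was the highest at every dose, and its log2 ratio of 1500 to 0 µM was -0.89, against -0.09 and 0.01 in replicates 1 and 3. At 200 µM replicate 3 was the lowest, at -0.95. In edgeR the log2 fold change was -0.41 ± 0.64 in 1500 against 0 µM and -0.33 ± 0.79 in 200 against 0 µM. With the block the latter was -0.44 ± 0.18, with an unadjusted p of 0.0385 and an adjusted p of 0.811. With the most abundant guide of every gene left out, SUZ12.4 for SUZ12, that blocked value was -0.64 ± 0.17. Its unadjusted p was then 0.00325 and its adjusted p 0.662.

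SUZ12's most abundant guide, SUZ12.4, was at 72.9, 670 and 96.1 CPM at 0 µM and at 76.3, 476 and 128 CPM at 1500 µM, high only in replicate 2. SUZ12.6, at 30.8, 569 and 32.4 CPM at 0 µM, 28.5, 277 and 20.7 CPM at 200 µM and 14.3, 152 and 36.0 CPM at 1500 µM, was also a guide of replicate 2. Its blocked dose-step value was -0.48 ± 0.20, with an unadjusted p of 0.0361. SUZ12.3 was even across untreated libraries and lower in every 200 µM library, at 124, 110 and 134 CPM against 88.9, 44.0 and 87.7 CPM, but not in every 1500 µM library, at 129, 53.8 and 107 CPM. Its blocked log2 fold change in 200 against 0 µM was -0.98 ± 0.39, with an unadjusted p of 0.0397. SUZ12.5 was low throughout, at 9.17, 14.7 and 23.2 CPM at 0 µM and 55.9, 13.4 and 28.9 CPM at 1500 µM. SUZ12.2 was at 0 in all 200 µM libraries and at most 11.9 CPM in any other.

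In the catalytic pair of PRC1, RING1 was lower in every treated library than in the untreated library of its number, by small amounts. Its summed level was 1529, 1467 and 2272 CPM at 0 µM, 1472, 1220 and 1731 CPM at 200 µM, and 1506, 1237 and 1588 CPM at 1500 µM. In replicate 1 the ratios were close to even, with a log2 ratio of -0.05 at 200 µM and -0.02 at 1500 µM, and in replicate 3 they were -0.39 and -0.52. Its fitted log2 fold changes were -0.18 ± 0.32 in 1500 against 0 µM and -0.30 ± 0.34 in 200 against 0 µM. With TMM-scaled totals, RING1 was the one Polycomb gene whose treated libraries lay wholly below the untreated ones, at 1500 µM (2.06% of all genes) and at 200 µM (1.52%).

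A different guide led RING1 in each number, and kept its lead at all 3 doses. RING1.2 held 60.4% of the RING1 counts in the untreated replicate 1 and was at 924, 65.4 and 274 CPM at 0 µM, 881, 58.1 and 167 CPM at 200 µM and 835, 138 and 152 CPM at 1500 µM. RING1.6 led replicate 2 and RING1.4 led replicate 3. RING1.10 was at 127, 335 and 78.3 CPM at 0 µM, 131, 119 and 36.5 CPM at 200 µM and 119, 158 and 87.1 CPM at 1500 µM, with a blocked log2 fold change of -1.03 ± 0.39 in 200 against 0 µM and an unadjusted p of 0.0345. RING1.1 and RING1.7 moved apart between the treated doses. RING1.1 was at 119, 254 and 295 CPM at 200 µM and at 79.9, 144 and 171 CPM at 1500 µM, and RING1.7 at 68.6, 114 and 67.0 CPM at 200 µM and at 116, 142 and 138 CPM at 1500 µM. Their blocked log2 fold changes in 1500 against 200 µM were -0.59 ± 0.26 and 0.85 ± 0.32, with unadjusted p of 0.0565 and 0.0336.

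RNF2, the alternative catalytic subunit, gave no direction. Its summed level was 317, 454 and 507 CPM at 0 µM, 473, 423 and 339 CPM at 200 µM, and 442, 331 and 562 CPM at 1500 µM, and the groups overlapped. By edgeR, the log2 fold changes were 0.15 ± 0.33 in 1500 against 0 µM and -0.10 ± 0.33 in 200 against 0 µM. RNF2.9, its most abundant guide at 0 µM, led in replicate 2 at 0 and 1500 µM. RNF2.4 was at 70.2, 103 and 8.10 CPM at 0 µM and 157, 60.9 and 71.0 CPM at 1500 µM, and RNF2.7 at 59.9, 38.5 and 48.0 CPM and at 65.6, 51.1 and 131 CPM. RNF2.10 was at 11.9, 0 and 14.6 CPM at 0 µM, at 0 in all 3 libraries at 200 µM and at 7.10 CPM in 1 library at 1500 µM. Its untreated counts were 22, 0 and 27, and replicate 2 was at 0 at every dose.

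Among the PCGF subunits, which define the PRC1 subtypes, PCGF6 was the one lower at 1500 µM in all 3 pairs. PCGF6 belongs to a variant PRC1 linked to germline genes. Its summed level was 817, 1027 and 760 CPM at 0 µM, 496, 1182 and 674 CPM at 200 µM, and 560, 770 and 481 CPM at 1500 µM. The log2 ratios of 1500 to 0 µM were -0.54, -0.42 and -0.66, and only 1 of the 1500 µM libraries, replicate 2, reached the lowest untreated value. In edgeR the log2 fold change was -0.40 ± 0.34 in 1500 against 0 µM and, with the block, -0.44 ± 0.16, with an unadjusted p of 0.0159 and an adjusted p of 0.606. In 200 against 0 µM it was -0.20 ± 0.39. With the most abundant guide of every gene left out, PCGF6.1 for PCGF6, the blocked value in 1500 against 0 µM was -0.61 ± 0.18. Its unadjusted p was then 0.00211 and its adjusted p 0.236.

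PCGF6.1 led PCGF6 in 8 of the 9 libraries, a more even lead than for other members. It was at 162, 358 and 253 CPM at 0 µM, 202, 500 and 252 CPM at 200 µM and 190, 288 and 147 CPM at 1500 µM, higher at 1500 µM in replicate 1 and lower in the others. PCGF6.4 was at 267, 150 and 43.2 CPM at 0 µM and 34.4, 103 and 28.9 CPM at 1500 µM, lower in all 3 pairs, with an unblocked log2 fold change of -1.49 ± 0.98 and an unadjusted p of 0.169.

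PCGF2 and PCGF3 had their lowest ratios in replicate 1. PCGF2, a partner in canonical PRC1, was at 2494, 1334 and 795 CPM at 0 µM, 1724, 1446 and 838 CPM at 200 µM, and 1458, 1086 and 882 CPM at 1500 µM. In replicate 3 its level was higher at both treated doses. Its fitted log2 fold changes were -0.35 ± 0.48 in 1500 against 0 µM and -0.29 ± 0.50 in 200 against 0 µM. PCGF2.10 held 69.3% of the PCGF2 counts in the untreated replicate 1, at 1728 CPM against 52.4 and 62.6 CPM in replicates 2 and 3, and was at 1237 CPM at 200 µM and 984 CPM at 1500 µM in replicate 1. PCGF2.6 was at 338, 31.2 and 48.6 CPM at 0 µM, 23.7, 41.9 and 31.7 CPM at 200 µM and 30.8, 35.8 and 42.6 CPM at 1500 µM. It had the lowest unblocked unadjusted p of the Polycomb guides in 1500 against 0 µM, 0.0854, and 0.0431 per dose step, and the untreated replicate 1 was its only high library. PCGF2.9 went the other way, at 44.3, 63.2 and 1.62 CPM at 0 µM, 56.1, 142 and 46.3 CPM at 200 µM and 77.8, 64.1 and 30.8 CPM at 1500 µM. It was higher in all 6 treated libraries than in the untreated one of its number, as were 4.04% of all guides. Its unblocked log2 fold change was 0.90 ± 1.22 in 200 against 0 µM.

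PCGF3, a partner in a variant PRC1, was at 2030, 1160 and 1218 CPM at 0 µM, 1103, 1157 and 1402 CPM at 200 µM, and 866, 1215 and 1392 CPM at 1500 µM. In replicate 1 its log2 ratio at 1500 µM was -1.23, with 2.24% of all genes below it, and in replicates 2 and 3 it was 0.07 and 0.19. By edgeR, the log2 fold changes were -0.26 ± 0.38 and -0.34 ± 0.36 in 1500 and 200 against 0 µM. Its most abundant guide, PCGF3.7, was a guide of replicate 2, at 36.7, 698 and 144 CPM at 0 µM and 28.7, 656 and 215 CPM at 1500 µM. PCGF3.8 was at 496, 72.7 and 245 CPM at 0 µM and 84.2, 57.0 and 211 CPM at 1500 µM, lower in all 3 pairs and most so in replicate 1. PCGF3.4 was at 43.2, 64.5 and 197 CPM at 0 µM and 139, 57.6 and 304 CPM at 200 µM. PCGF3.10 was at 99.8, 79.2 and 89.1 CPM at 0 µM and at 135, 106 and 107 CPM at 200 µM, wholly above, and at 135, 93.2 and 62.5 CPM at 1500 µM, which overlapped.

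By library total, PCGF1 and PCGF5 had no common direction over the numbers in either comparison with 0 µM. PCGF1, the partner in the variant PRC1 that holds KDM2B and BCOR, was at 567, 1225 and 1333 CPM at 0 µM, 715, 1039 and 1101 CPM at 200 µM, and 647, 959 and 1054 CPM at 1500 µM. It was higher in replicate 1 and lower in replicates 2 and 3 at both doses, with edgeR log2 fold changes of -0.11 ± 0.38 and -0.17 ± 0.38 in 1500 and 200 against 0 µM. PCGF1.7, its most abundant guide at 0 µM, led in replicate 2. PCGF1.6 was at 191, 178 and 201 CPM at 0 µM and at 165, 173 and 109 CPM at 1500 µM, wholly below, and at 153, 258 and 55.2 CPM at 200 µM, which overlapped. PCGF1.8 was at 87.5, 27.3 and 227 CPM at 200 µM and 59.1, 12.2 and 67.7 CPM at 1500 µM, lower in all 3 pairs, with a blocked log2 fold change of -1.02 ± 0.45 and an unadjusted p of 0.0566.

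PCGF5, a close relative of PCGF3, was the Polycomb gene with the highest fold change in 1500 against 0 µM. It was at 616, 1300 and 728 CPM at 0 µM, 850, 1358 and 659 CPM at 200 µM, and 906, 1237 and 755 CPM at 1500 µM. Replicate 1 was higher at both doses, with log2 ratios of 0.46 and 0.56, and replicates 2 and 3 were between -0.14 and 0.06. Relative to the median gene, the ratios of 1500 to 0 µM were 0.53, 0.17 and 0.10. They were higher in all 3 pairs, as for 13.4% of all genes. In edgeR the log2 fold changes were 0.26 ± 0.40 and 0.06 ± 0.41 in 1500 and 200 against 0 µM. PCGF5.5, its most abundant guide, was at 89.6, 332 and 117 CPM at 0 µM, 154, 249 and 162 CPM at 200 µM and 277, 283 and 153 CPM at 1500 µM. PCGF5.10 was at 8.10, 329 and 22.1 CPM at 0 µM and 30.8, 279 and 41.2 CPM at 1500 µM, higher where it was scarce and lower where it was abundant.

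CBX8, the chromodomain member, was highest in replicate 3 at every dose. Its summed level was 501, 693 and 1531 CPM at 0 µM, 490, 567 and 869 CPM at 200 µM, and 677, 456 and 1069 CPM at 1500 µM. At 200 µM it was lower in all 3 pairs, from a log2 ratio of -0.03 in replicate 1 to -0.82 in replicate 3, and at 1500 µM it was higher in replicate 1 and lower in the others. Its fitted log2 fold change was -0.53 ± 0.45 in 200 against 0 µM, and with the block -0.44 ± 0.16, with an unadjusted p of 0.0273 and an adjusted p of 0.811. With the most abundant guide of every gene left out, CBX8.8 for CBX8, the blocked value was -0.24 ± 0.15, with an unadjusted p of 0.142. In 1500 against 0 µM it was -0.22 ± 0.45.

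CBX8.8 held most of the difference in replicate 3. It was at 41.6, 309 and 565 CPM at 0 µM, 40.6, 220 and 25.2 CPM at 200 µM and 46.2, 151 and 120 CPM at 1500 µM, with a blocked log2 fold change of -1.10 ± 0.46 in 1500 against 0 µM and an unadjusted p of 0.0482. CBX8.9 led replicate 3 at every dose, at 664, 562 and 628 CPM there for 0, 200 and 1500 µM. CBX8.4 was at 106 CPM in the untreated replicate 1 and at 99.1 and 82.1 CPM at 200 and 1500 µM, and under 5 CPM in every library of replicates 2 and 3. CBX8.1 was at 59.5, 40.4 and 34.1 CPM at 200 µM and at 124, 42.8 and 109 CPM at 1500 µM, higher in all 3 pairs, with a blocked log2 fold change of 1.08 ± 0.47 and an unadjusted p of 0.0548.

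PHC1, whose SAM domain links PRC1 complexes into chains, was lower at 1500 µM in all 3 pairs, and nearly all of that difference was in replicate 1. Its summed level was 1159, 766 and 1412 CPM at 0 µM, 441, 796 and 1214 CPM at 200 µM, and 598, 693 and 1365 CPM at 1500 µM. The log2 ratios of 1500 to 0 µM were -0.95, -0.14 and -0.05, and relative to the median gene -0.98, 0.10 and -0.01. By edgeR, the log2 fold changes were -0.25 ± 0.38 and -0.49 ± 0.43 in 1500 and 200 against 0 µM.

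A single guide, PHC1.5, differed in replicate 1 by more than the gene's sum did. It held 75.6% of the PHC1 counts in the untreated replicate 1 and was at 876, 115 and 13.0 CPM at 0 µM, 72.0, 108 and 18.7 CPM at 200 µM and 109, 77.8 and 15.2 CPM at 1500 µM. PHC1.4, the most abundant guide on average, led in 7 of the 9 libraries and was even, at 184, 464 and 459 CPM at 0 µM, 223, 422 and 393 CPM at 200 µM and 254, 399 and 403 CPM at 1500 µM. PHC1.3 was higher in all 6 treated libraries than in the untreated one of its number, as were 4.04% of all guides. It was at 4.32, 2.17 and 128 CPM at 0 µM. At 200 µM it was at 17.4, 2.53 and 229 CPM, and at 1500 µM at 31.2, 11.8 and 193 CPM. In replicate 2 PHC1.3 had 5 counts both at 0 and at 200 µM, so that pair differed only through the library totals. Its blocked log2 fold change was 1.79 ± 0.63 in 1500 against 0 µM and 0.95 ± 0.29 per dose step, with unadjusted p of 0.0236 and 0.00758 and adjusted p of 0.999 and 0.998. PHC1.8 was also higher in all 6, from at most 3.24 CPM at 0 µM to at most 12.2 CPM at 200 µM and 10.4 CPM at 1500 µM, a guide of few counts. PHC1.2 was at 30.0, 78.3 and 244 CPM at 200 µM and 112, 59.7 and 446 CPM at 1500 µM, higher in replicates 1 and 3 and lower in replicate 2.

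Other genes of the Polycomb system in the table gave no call either. These were RBBP4 and RBBP7, histone-binding proteins of PRC2, 6 genes of PRC1 variants (KDM2B, RYBP, BCOR, SKP1, DCAF7 and WDR5), HCFC1, which works with the H2A deubiquitinase BAP1, and DPF2 of the opposing SWI/SNF remodellers. None of these 10 genes passed the unblocked edgeR test in any of the 4 comparisons, in either direction, where 0 of all 1117 genes did. In 1500 against 0 µM their log2 fold changes ran from -0.38 ± 0.74 (DPF2) to 0.24 ± 0.34 (HCFC1), a range that overlaps that of the 11 genes. With the block in edgeR, DPF2 was at -0.33 ± 0.16 in 1500 against 0 µM. Its unadjusted p was 0.0490 and its adjusted p 0.740, and 6.62% of all genes had an unadjusted p under 0.05. Per dose step DPF2 was at -0.17 ± 0.060, with an unadjusted p of 0.0134, against 9.94% of all genes under 0.05. BCOR was at -0.22 ± 0.096 in 1500 against 200 µM, with an unadjusted p of 0.0384, against 6.62%. In 1500 against 0 µM KDM2B and RYBP, partners of the variant complexes, were at -0.16 ± 0.16 and -0.15 ± 0.17.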

How the data were processed

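A single table of counts per guide, as deposited by the authors, was used, with 10 guides per gene. Per the submitters' processing notes, cutadapt 1.18 and MAGeCK 0.5.8 were used. Mismatch settings and filters are not stated in those notes. The counts were whole numbers and were used unchanged. From them CPM, shares and sums per gene were computed here. Guides, or gene sums, with at least 10 counts in at least 3 libraries were compared with edgeR 4.0.16 (quasi-likelihood test, TMM, robust, no block) on the 6 libraries of a pair of doses, or all 9 for the dose step, with Benjamini-Hochberg adjustment over all features and a threshold of 0.05. The SE was derived as the log2 fold change divided by the root of the F statistic. DESeq2 1.42.0 and limma 3.58.1 (R 4.3.3, on log2(CPM + 1)) were alternatives. The edgeR fits were checked on simulated counts with larger changes than the fitted gene changes given here. Recovery of changes as small as these was not checked. Same-numbered libraries at different doses deviated together (correlations of 0.66 to 0.78 over tested guides, above the rule of 0.1), so the numbers were taken to pair them. The pairing comes from this check, since the labels do not explain the numbers. Guides were named by a rule: each gene's most abundant untreated guide, up to 3 per direction of lowest p in each comparison without and with the block, and those with 1 direction in all pairs at both doses or at 0 throughout. Others were named after their values were seen. The genes, lists and tests were chosen with earlier results of these data known. Molecular identifiers are not mentioned, so reads may not be independent molecules. No coordinates were used.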

Additional observations from a re-analysis of the deposited data

How the results depend on the processing

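Depth limits guides under a few CPM, where a count of 0 and a low count cannot be told apart, and 3 libraries a dose limit all tests. Alternatives were DESeq2, the replicate block, other size factors and count minimums, all 9 libraries in each fit, equal weight for each guide (limma) and leaving out each library. The omission of single EED guides, of libraries from the blocked fits and of each gene's most abundant guide, and the ratios relative to the median gene or guide, were chosen after seeing the data. The cause of each change was not tested. Among the Polycomb genes, calls under an alternative were seen for EED, in the blocked DESeq2 dose-step fit and in some of the blocked edgeR fits with a guide, library or replicate number left out.

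Over all features, where the unblocked edgeR fits called 0, DESeq2 with the replicate block called 6 guides in each comparison except 1500 against 200 µM (43 guides), and 3, 1, 24 and 15 genes in 1500 against 0, 200 against 0, 1500 against 200 µM and the dose step. edgeR with the replicate block called 1 gene in 1500 against 0 µM and 1 in the dose step. DESeq2 without a block called 1 gene in 1500 against 0 µM, 1 in 1500 against 200 µM and 2 in the dose step. The limma fit with the block called 1 gene in 1500 against 0 µM, and edgeR without each gene's most abundant guide and with the block called 1 gene in 1500 against 0 µM, 1500 against 200 µM and the dose step each. With limma, 2 of 11 Polycomb genes lay below the median in 1500 against 200 µM. Without the most abundant guide in the total, the share at 1500 µM was 1.10%. Polycomb genes higher in all 3 pairs at 1500 µM numbered 1 with TMM-scaled totals and 1 relative to the median gene, genes lower at 200 µM 5 with TMM-scaled totals, and guides lower at 200 µM 22 relative to the median guide.

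Directions turned for results that had not passed a test. With equal weight for each guide (limma, with and without the block), log2 fold changes in 1500 against 0 µM were 0.044 for CBX8, 0.19 for PCGF1, 0.039 for PCGF3, -0.15 for PCGF5 and 0.48 for PHC1, and in 200 against 0 µM 0.042 for PCGF3 and 0.18 for PHC1. With the most abundant guide of every gene left out, CBX8 was at 0.064 in 1500 against 0 µM, or 0.056 with the block. PCGF5 was then at -0.014 in 200 against 0 µM with the block. PCGF5.10 in 200 against 0 µM was at 0.62 with the replicate block in edgeR and 0.66 in DESeq2, against -0.22 without it.

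Leaving out 1 library at a time, in 1500 against 0 µM the log2 fold change ran from -0.52 to 0.34 for CBX8, -0.39 to 0.075 for PCGF1, -0.69 to 0.24 for PCGF2, -0.43 to 0.099 for PCGF3, -0.054 to 0.63 for PCGF5, -0.31 to 0.0019 for RING1 and -1.01 to 0.55 for SUZ12. In 200 against 0 µM it ran from -0.79 to 0.026 for CBX8, -0.72 to 0.056 for EED, -0.43 to 0.017 for PCGF1, -0.63 to 0.31 for PCGF2, -0.48 to 0.033 for PCGF3, -0.28 to 0.48 for PCGF5, -0.62 to 0.055 for PCGF6, -0.23 to 0.048 for RNF2 and -1.37 to 0.67 for SUZ12, and in 1500 against 200 µM from -0.59 to 0.18 for EED. For guides it ran from -2.21 to 0.77 for EED.8, -0.0011 to 1.21 for PCGF2.9, -1.96 to 3.16 for PCGF5.10, -0.87 to 4.28 for PHC1.3 and -2.99 to 0.038 for PHC1.5 in 1500 against 0 µM, from -2.45 to 0.77 for EED.8, -0.10 to 1.36 for PCGF3.4, -2.01 to 2.93 for PCGF5.10 and -2.15 to 4.33 for PHC1.3 in 200 against 0 µM, from -2.34 to 0.073 for EED.6 and -0.20 to 1.89 for PHC1.2 in 1500 against 200 µM and from -1.07 to 0.35 for EED.8, -0.28 to 1.73 for PHC1.3, -1.46 to 0.036 for PHC1.5 and -1.61 to 0.48 for SUZ12.6 per dose step.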
